A study of Mus musculus with 4 samples.

Results

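The genes that make gamma-aminobutyric acid (GABA) and load it into synaptic vesicles were followed in single cells of the embryonic mouse brain. They were chosen by name as Gad1, Gad2 and Slc32a1, that is 3 of the 27998 genes in the Illumina matrices, and 5 of the 31986 isoforms in the Nanopore matrices belonged to them. The tissue was cortex, hippocampus and ventricular zone from a C57BL/6 mouse at embryonic day 18, for which no treatment or transgene is named. It was dissociated and loaded as a single 10x Genomics emulsion, which was divided so that 951 cells went into 1 aliquot and 190 into the other. Both aliquots were read by Illumina sequencing, which covers the 3′ end of a molecule, and by Nanopore sequencing, which covers the cDNA along its length. The Nanopore reads received their cell barcodes and unique molecular identifiers (UMIs, one per captured RNA molecule) by comparison with the Illumina reads, so both platforms reported on the same molecules. Both aliquots came from 1 emulsion, and every error and p-value below therefore measures the spread between parts of 1 cell suspension and not between animals.

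GABA is the main inhibitory transmitter of the forebrain. It is made from glutamate in a single step by glutamate decarboxylase, and the mouse has a pair of genes for this enzyme. Gad1 encodes GAD67, which is spread through the cytosol and supplies most of the basal GABA of the brain, and Gad2 encodes GAD65, which is concentrated at nerve terminals. Slc32a1 encodes VGAT, the vesicular transporter that moves GABA, and also glycine, into synaptic vesicles. In the embryonic forebrain the interneurons that use these genes are born in the ganglionic eminences and migrate into the cortex and hippocampus, and GABA acts on young neurons before most synapses are formed.

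All 3 genes lie on the plus strand of mouse chromosome 2 (GRCm38, the build also called mm10). Gad1 (ENSMUSG00000070880.10) spans chr2:70553072-70602014, Gad2 (ENSMUSG00000026787.3) spans chr2:22622205-22693874 and Slc32a1 (ENSMUSG00000037771.11) spans chr2:158610767-158615748. The full-length Gad1 isoform, Gad1-201, has 17 exons and 3355 bases, of which 1779 are coding. Gad2-201 has 16 exons and 5744 bases with 1755 coding bases, and its 3′ untranslated region of 3531 bases is longer than that of Gad1-201, which has 1221 bases. Slc32a1-201 has 2 exons and 2797 bases, of which 1575 are coding. In an alignment of their coding sequences Gad1-201 and Gad2-201 were identical at 1170 of 1737 aligned positions (67.4%), and the last 12 of their 16 coding exons had the same lengths. The corresponding identity with the coding sequence of Slc32a1 was 58.7% for Gad1 and 60.9% for Gad2, in alignments of genes that belong to different families. A Gad1 pseudogene has a row of its own in the Illumina matrices, and reads that match both it and Gad1 could not be told apart here.

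The isoforms that received Nanopore UMIs are shown first because they differ in whether they can encode the enzyme. Gad1-203 (chr2:70562042-70587136, 9 exons, 1197 bases) carries an extra exon of 80 bases at chr2:70584420-70584499, within the intron of 6632 bases between the exons of 91 and 113 bases. This exon is annotated in an isoform of the nonsense-mediated decay class, and the reading frame meets a TGA stop codon after 34 bases of the exon. The frame then holds 223 codons in place of the 593 codons of Gad1-201. Inclusion of an exon that ends the frame early is known for Gad1 in embryonic brain, where a short GAD25 product without the catalytic part has been described. The 2 junctions below start with the same 30 bases of the exon before, in lower case. The capitals mark the exon that follows, which is the next shared exon in Gad1-201 and the extra exon up to its stop codon in Gad1-203.
Gad1-201: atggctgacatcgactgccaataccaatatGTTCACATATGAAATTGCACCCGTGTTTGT
Gad1-203: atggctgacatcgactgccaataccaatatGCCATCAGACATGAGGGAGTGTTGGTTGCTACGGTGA

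The annotated end of Gad1-203 lies inside the gene and not at the 3′ end of Gad1-201. The stretch of Gad1-201 across that end is given because the library was primed on runs of A, with the 20 bases that follow the end of Gad1-203 in capitals. These 20 bases held 7 A, and a part of priming within the transcript in the Gad1-203 UMIs was not tested.
Gad1-201 across the end of Gad1-203: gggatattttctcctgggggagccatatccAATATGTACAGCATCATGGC

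The sequences just before the annotated transcription starts are given because all 3 genes were highest in the same classes. They come from RefSeq windows of the same genome build, 163 bases before Gad1 (chr2:70561879-70562041), 128 before Gad2 (chr2:22622077-22622204) and 250 before Slc32a1 (chr2:158610508-158610757), all on the plus strand. The capitals in the Gad1 sequence mark TTTATA, the reverse complement of the TATA-like motif TATAAA.
Gad1 upstream: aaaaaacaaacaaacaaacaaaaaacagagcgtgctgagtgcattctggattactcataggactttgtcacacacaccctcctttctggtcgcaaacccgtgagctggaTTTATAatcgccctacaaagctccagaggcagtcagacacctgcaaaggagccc
Gad2 upstream: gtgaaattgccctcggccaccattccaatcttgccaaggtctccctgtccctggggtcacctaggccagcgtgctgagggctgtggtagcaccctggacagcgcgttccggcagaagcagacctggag
Slc32a1 upstream: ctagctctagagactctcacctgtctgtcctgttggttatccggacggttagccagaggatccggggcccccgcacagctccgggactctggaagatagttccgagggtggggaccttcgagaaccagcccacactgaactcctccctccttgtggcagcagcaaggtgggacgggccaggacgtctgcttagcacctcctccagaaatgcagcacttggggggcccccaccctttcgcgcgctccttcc

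The motifs were searched on both strands of the whole windows of 300 bases, which run past the annotated starts into transcribed sequence. TATAAA was found for Gad1 alone, against 13.6% of all 32851 promoter windows. The homeodomain core TAATTA, which DLX proteins are known to bind, was in none of the 3 windows and in 5.29% of all windows. GGGCGG, the core of the GC box, was found for Gad1, in the part of the window not printed, and in 35.7% of all windows. The windows of the 3 genes were rich in G and C, at 60.0% for Gad1, 61.3% for Gad2 and 63.3% for Slc32a1, against a median of 52.7%. They held 21, 14 and 17 CpG dinucleotides in the same order, against a median of 7.

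Of the 1141 cell barcodes, 1121 passed the filter of at least 1400 Illumina genes. The kept cells held 1809081 and 8295650 Illumina UMIs and 993220 and 4889148 isoform-assigned Nanopore UMIs in the 190-cell and the 951-cell aliquot. The aliquots shared 13 barcode sequences, which touched 24 kept cells. Haemoglobin transcripts, which come from red blood cells, stood at 556 to 769 CPM (UMIs of a gene scaled to the same total of UMIs in every class) in every neural class and were found in 92.1% to 100% of its cells, so free RNA was present in the droplets.

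Cells were grouped by the Illumina counts of all other genes, with Gad1, Gad2 and Slc32a1 left out of the clustering and of the naming. The classes were named from marker lists, and a class is called "-like" for that reason. The mature GABAergic-like class (140 cells) was led by Maf, Nxph1, Npy and Sst, and the immature GABAergic-like class (177 cells) by Ebf1, Isl1, Zfhx3 and Foxp2, so the latter also held genes known from striatal neurons. The other classes were cycling radial glia-like (118 cells), radial glia-like (70 cells), intermediate progenitor-like (87 cells), immature glutamatergic-like (233 cells), mature glutamatergic-like (279 cells) and Cajal-Retzius-like (17 cells). The list that named the cycling radial glia-like class held only genes of the cell cycle, such as Top2a and Mki67, so the name does not show that its cells were radial glia. The markers of immature GABAergic cells were raised in that class as well, by 0.829 on a log2 scale on average. Slc1a3, a radial glia marker, stood there at 143 and 104 CPM (190-cell, then 951-cell aliquot), against 533 and 647 CPM in radial glia-like cells. Dlx1 stood at 283 and 188 CPM, against 5.55 and 9.21 CPM. When the 3 genes were kept for the clustering, 8 of the 1121 cells changed class.

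**Figure D1:**
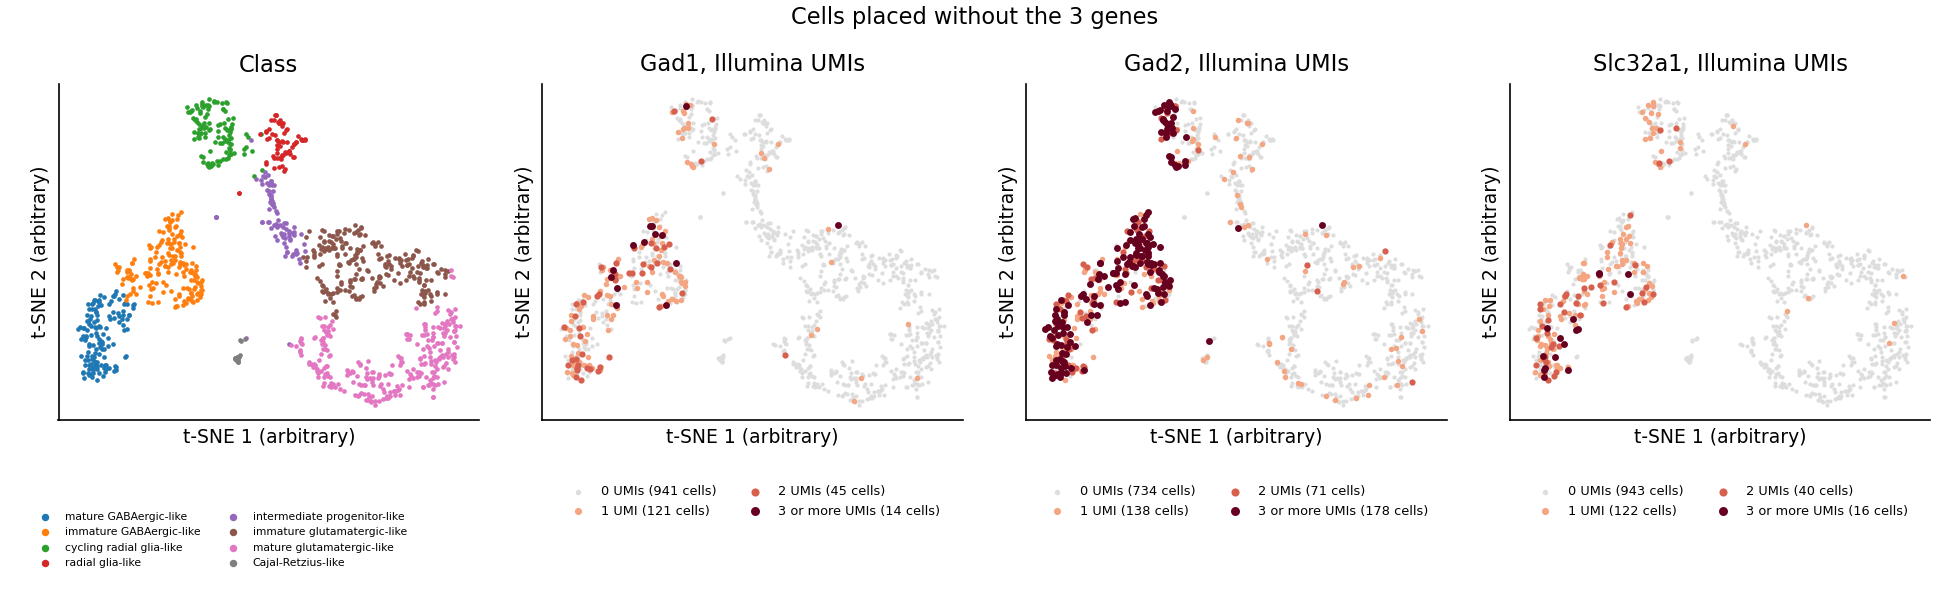
Cells placed by t-SNE on the expression of all genes except Gad1, Gad2 and Slc32a1 (axes in arbitrary units), coloured by class in the first panel and by the Illumina UMIs of each gene in the other panels. UMIs of the 3 genes lie mainly over the 317 GABAergic-like cells and over a part of the cycling radial glia-like cells.

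Gad2 gave 1104 Illumina UMIs in the kept cells, Gad1 259 and Slc32a1 253. The GABAergic-like classes were 28.3% of the cells and held 75.5% of the Gad2 UMIs (95% exact binomial interval 72.8% to 78.0%), 82.6% of the Gad1 UMIs (77.5% to 87.0%) and 86.2% of the Slc32a1 UMIs (81.3% to 90.2%). The Nanopore UMIs gave 81.7%, 86.5% and 89.2% in the same order. Most of the remaining UMIs lay in the cycling radial glia-like class, with 197 of Gad2, 28 of Gad1 and 27 of Slc32a1. These intervals and those that follow cover counting error only.

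Levels are given as CPM, in which each molecule counts once whatever the length of its transcript, first for the 190-cell and then for the 951-cell aliquot. Gad1 stood at 166 and 120 CPM in the mature GABAergic-like class. It stood at 170 and 114 CPM in the immature GABAergic-like class. The ranges of these classes overlapped, and the cycling radial glia-like class followed below both with 34.2 and 17.1 CPM. In the mature glutamatergic-like class Gad1 was at 1.84 and 2.59 CPM. It was at 0 and 3.28 CPM in the immature glutamatergic-like and at 0 and 4.60 CPM in the radial glia-like class, so these 3 classes overlapped. No Gad1 UMI was found in the 87 intermediate progenitor-like cells, where 3 UMIs would be 3.90 CPM, or in the 17 Cajal-Retzius-like cells, where they would be 17.9 CPM.

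By Illumina, Gad2 was the most abundant of the 3 by molecule count in both GABAergic-like classes. It reached 673 and 489 CPM in the immature and 591 and 407 CPM in the mature GABAergic-like class, again with overlapping ranges. The cycling radial glia-like class had 146 and 151 CPM, below both. Further down came the intermediate progenitor-like class with 21.3 and 14.3 CPM. The immature glutamatergic-like class had 9.55 and 10.5 CPM and the mature glutamatergic-like class 9.22 and 7.39 CPM. The radial glia-like class had 5.55 and 8.05 CPM. The values of these last 3 classes rested on 1 to 20 UMIs each, and their counting intervals overlapped. Cajal-Retzius-like cells gave 23.6 and 71.8 CPM, but the second value rested on 9 UMIs of 2 cells, 8 of them in 1 cell.

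By Illumina, Slc32a1 was the only gene of the 3 whose values did not overlap between the GABAergic-like classes. It stood at 145 and 183 CPM in the mature and at 93.6 and 91.7 CPM in the immature class. In the 190-cell aliquot these values rested on 14 and 16 UMIs, and their counting intervals overlapped (79.4 to 244 and 53.5 to 152 CPM). In the 951-cell aliquot the intervals were apart (150 to 220 and 72.5 to 114 CPM). How often such values fail to overlap over all genes was not tested, so the lack of overlap is not read as particular to Slc32a1. The cycling radial glia-like class followed with 24.9 and 19.2 CPM. The radial glia-like class had 5.55 and 1.15 CPM, the immature glutamatergic-like class 3.18 and 1.31 CPM and the mature glutamatergic-like class 1.84 and 0.739 CPM, where each of the 6 values rested on 1 or 2 UMIs. No Slc32a1 UMI was seen in the intermediate progenitor-like or the Cajal-Retzius-like cells, at the same limits of 3.90 and 17.9 CPM.

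**Figure D2:**
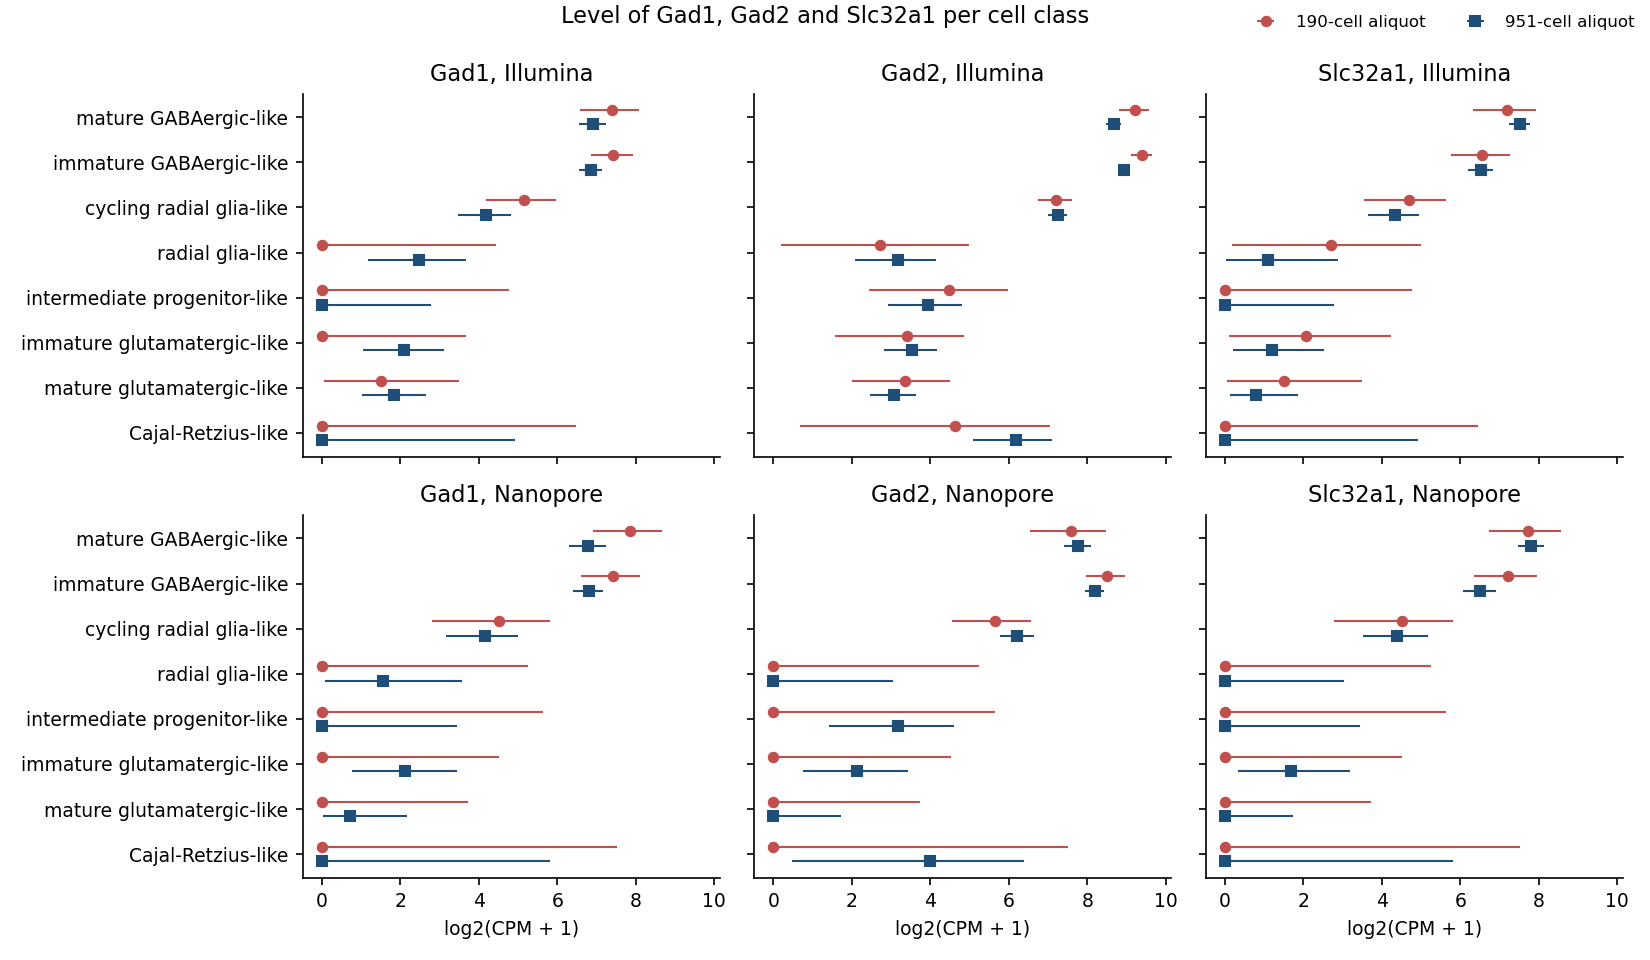
Level of each gene per class as log2(CPM + 1), with Illumina in the upper and Nanopore in the lower row. Circles are the 190-cell and squares the 951-cell aliquot, and bars are 95% exact Poisson intervals of the count. All 3 genes were highest in the GABAergic-like classes and next highest in the cycling radial glia-like class.

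The share of cells with a UMI followed the levels. A Gad2 UMI was found in 118 of 140 mature GABAergic-like cells (84.3%, 77.2% to 89.9%) and in 152 of 177 immature ones (85.9%, 79.9% to 90.6%). A Gad1 UMI was found in 64 of the mature (45.7%, 37.3% to 54.3%) and 81 of the immature cells (45.8%, 38.3% to 53.4%). A Slc32a1 UMI was found in 77 of the mature (55.0%, 46.4% to 63.4%) and 70 of the immature cells (39.5%, 32.3% to 47.2%). By aliquot these were 56.1% and 38.4% in the 951-cell but 47.1% (8 of 17) and 45.2% (14 of 31) in the 190-cell aliquot, where the shares were nearly equal. The median depth was 4892 Illumina UMIs per mature and 5562 per immature GABAergic-like cell. In mature glutamatergic-like cells, which are not known to use these genes and had a median of 11448 UMIs, the shares were 8.60% for Gad2, 2.51% for Gad1 and 1.08% for Slc32a1, and these stand for the background here. In the cycling radial glia-like class 60 of 118 cells had a Gad2 UMI (50.8%, 41.5% to 60.2%), 17.8% had a Gad1 UMI and 19.5% a Slc32a1 UMI, at a median of 9752.5 UMIs. The Gad2 shares of 11.4% in radial glia-like and 11.5% in intermediate progenitor-like cells were near the background share.

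After every cell was thinned to 2000 UMIs the shares fell, and for each gene both GABAergic-like classes stayed highest with the cycling radial glia-like class next. Within the GABAergic-like pair and among the low classes the order moved for some genes, with overlapping intervals for Gad1. Gad2 was then found in 53.6% of mature and 58.2% of immature GABAergic-like cells, in 30.5% of cycling radial glia-like cells and in 1.08% of mature glutamatergic-like cells. Gad1 was found in 25.0%, 20.9%, 3.39% and 1.08% of the same classes. Slc32a1 was found in 28.6% (21.3% to 36.8%) of the mature and 16.4% (11.3% to 22.7%) of the immature GABAergic-like cells, in 4.24% of the cycling radial glia-like cells and in 0.358% of the mature glutamatergic-like cells.

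**Figure D3:**
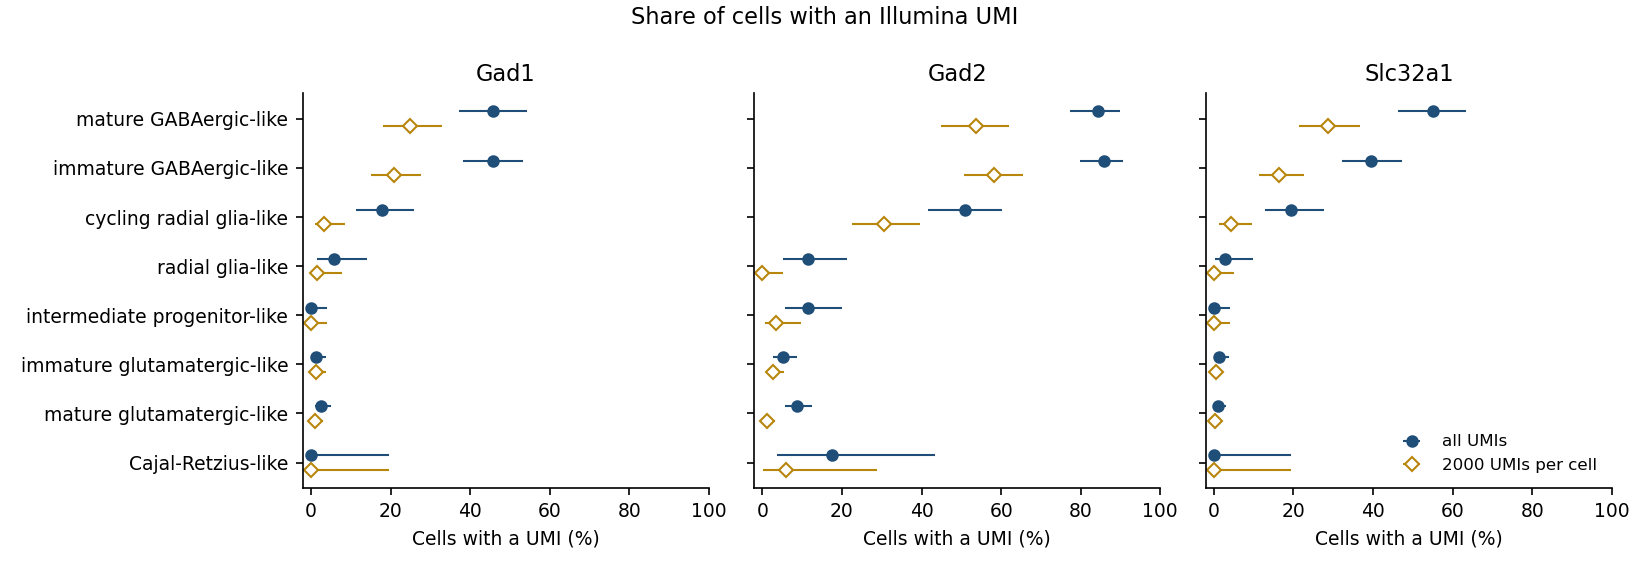
Share of cells (percent) with an Illumina UMI of each gene per class, from all UMIs (filled circles) and after thinning each cell to 2000 UMIs (open diamonds), both aliquots together. Bars are 95% exact binomial intervals. Gad2 was found in the largest share of GABAergic-like cells, and the pooled Slc32a1 share was higher in the mature than in the immature class both before and after thinning.

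The transcripts were few per cell. A cell held at most 12 Gad2, 5 Gad1 and 4 Slc32a1 UMIs, and cells with the gene held 2.85, 1.44 and 1.42 UMIs on average. At least 1 of the 3 genes was seen in 135 of the 140 mature GABAergic-like cells (96.4%) and in 97.2% of the immature ones. All 3 were seen together in 32 mature (22.9%) and 33 immature cells (18.6%). Gad2 without Gad1 was seen in 64 mature and 85 immature cells, and Gad1 without Gad2 in 10 and 14. Slc32a1 without either decarboxylase was seen in 7 and 6 cells. At these counts a gene that is missing from a cell may only have been missed. Of the 279 mature glutamatergic-like cells, 12.2% had a UMI of 1 of the genes and none had UMIs of more than 1.

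The cells that carried these UMIs outside the GABAergic-like classes differed in their Dlx transcripts. The sum was taken over Dlx1, Dlx2, Dlx5, Dlx6 and Dlx6os1. The first 4 encode homeodomain factors of the GABAergic lineage. Dlx6os1 encodes no such factor, so the sum is not a level of homeodomain transcripts alone. In the cycling radial glia-like class 52 of 118 cells had at least 2 UMIs of the 3 genes, and all 52 had a Dlx UMI, at 1394 CPM. Of the 51 cells of that class with none, 22 had a Dlx UMI (43.1%), at 234 CPM, although their median depth was higher (12185 against 8596 UMIs). In the mature glutamatergic-like class 6 of the 32 cells with 1 UMI of the 3 genes had a Dlx UMI (18.8%), beside 38 of the 245 cells with none (15.5%). These shares differed by less than counting error. In the immature glutamatergic-like class a Dlx UMI was found in 14 of 217 cells with none of the 3 genes (6.45%), in 3 of 12 with 1 UMI (25.0%) and in 3 of 4 with 2 or more (75.0%). In the radial glia-like class it was found in 6 of 59 cells (10.2%), 2 of 9 (22.2%) and 2 of 2. The radial glia-like cells with 1 UMI were deeper than those with none (median 20672 against 9792 UMIs). Their Dlx levels were 10.0 and 7.26 CPM. The cells with UMIs of the 3 genes were thus not alike across classes, and their numbers were small. The part of depth in these shares was not tested, nor was that of free RNA or doublets in these cells.

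Between the transmitter classes the 3 genes showed large differences. The test was edgeR's quasi-likelihood test on Illumina UMIs summed per class and aliquot, over 8544 genes, with Benjamini-Hochberg adjustment. In the mature classes 777 genes passed an adjusted p of 0.05 between GABAergic-like and glutamatergic-like cells (9.09% of those tested), 269 of them higher in the former (3.15%). All 3 genes were among the latter. Gad1 was higher by 5.50 on the log2 scale (SE 0.49, adjusted p = 9.4e-12), Gad2 by 5.71 (SE 0.28, adjusted p = 4.7e-20) and Slc32a1 by 7.09 (SE 0.52, adjusted p = 3.5e-14). As ratios of CPM over both aliquots these were 51.2-fold for Gad1 (95% interval 24.9 to 122), 56.2-fold for Gad2 (37.3 to 88.2) and 192-fold for Slc32a1 (64.3 to 945). The Slc32a1 value set 124 UMIs against 3, and in the 190-cell aliquot alone its log2 difference was 5.02. Nanopore found 85 Gad2 and 89 Slc32a1 UMIs in mature GABAergic-like cells and none of either in mature glutamatergic-like cells.

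The same held in the immature classes, where 431 genes passed (5.04%) and 191 were higher in the GABAergic-like class (2.24%). Gad1 was higher by 5.59 (SE 0.52, adjusted p = 5.1e-11), Gad2 by 5.78 (SE 0.29, adjusted p = 1.2e-19) and Slc32a1 by 5.68 (SE 0.55, adjusted p = 1.6e-10) on the log2 scale. The CPM ratios were 45.3-fold, 50.3-fold (31.9 to 84.2) and 56.4-fold (18.7 to 278), the last from 94 UMIs against 3. For Gad1 the log2 difference was 6.43 in the 190-cell aliquot alone and 4.97 in the 951-cell aliquot alone. The first of these set 29 UMIs against 0, so its size depends on the offset added to the counts. For Slc32a1 the log2 difference was 4.22 in the 190-cell aliquot alone. Whether the differences of the mature classes and those of the immature classes are unequal was not tested. With the aliquot number as a block the numbers of genes past the threshold rose to 1288 for the mature and 816 for the immature classes, and the 3 genes stayed past it.

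Within the GABAergic lineage the mature and immature classes were compared directly, and 217 genes passed (2.54%). None of the 3 genes passed. Gad1 differed by -0.13 (SE 0.35, adjusted p = 1), and its sign turned to 0.40 (adjusted p = 0.84) when a finer clustering was used. Gad2 differed by -0.39 (SE 0.21, adjusted p = 0.51), with a CPM ratio of mature to immature of 0.832 (0.720 to 0.960). Slc32a1 was higher in the mature class by 0.76 (SE 0.33, unadjusted p = 0.028, adjusted p = 0.34), with a CPM ratio of 1.93 (1.46 to 2.55). With the aliquot number as a block 495 genes passed, and Slc32a1 was among them at 0.81 (adjusted p = 0.04). The 190-cell aliquot alone gave 0.41 and the 951-cell aliquot alone 0.89 for Slc32a1. In simulated data of this comparison 200 of 8544 genes were changed. Of the genes changed 2-fold 8% were recovered, and of those changed 4-fold 56%, while 7 unchanged genes were called. The changed genes were drawn at random from all genes tested, so these shares do not give the reach of the test for Slc32a1 itself.

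The proportion between the genes was compared within each library, where depth cancels. Gad1 made up 21.9% and 22.7% of the summed Gad1 and Gad2 UMIs in the mature GABAergic-like class (190-cell, then 951-cell aliquot) and 20.1% and 18.9% in the immature class. The means were 22.3% ± 0.562 and 19.5% ± 0.870 (SD, n = 2), a difference of 2.79 percentage points. An exact two-sided permutation test gave p = 0.333, which is the smallest value that 2 against 2 samples allow. Over both aliquots the cycling radial glia-like class had 12.4%, with 19.0% in the 190-cell and 10.2% in the 951-cell aliquot. Slc32a1 made up 16.1% and 25.8% of the UMIs of the 3 genes in the mature class and 10.0% and 13.2% in the immature class. Neither these ranges nor those of the Gad1 share overlapped between the mature and the immature class. The exact two-sided permutation test again gave its smallest value, p = 0.333.

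The platforms counted the 3 genes unequally, and the Nanopore counts held only UMIs assigned to an annotated isoform. Loss in Nanopore sequencing and loss at this assignment were not told apart. Nanopore returned 167 Slc32a1 UMIs, that is 66.0 per 100 Illumina UMIs, with 70.7 in the 190-cell and 65.1 in the 951-cell aliquot. It returned 141 Gad1 UMIs, or 54.4 per 100 (56.1 and 54.0). It returned 327 Gad2 UMIs, or 29.6 per 100 (22.8 and 31.4), against 58.2 per 100 over all genes. Gad2 thus had the lowest recovery of the 3 in both aliquots. No cell had a Nanopore UMI of one of these genes without an Illumina UMI of it, or more Nanopore than Illumina UMIs. The assignment accepts only UMIs that Illumina found for the same cell and gene or genomic region. This outcome was therefore largely built in and is no separate evidence. The gene was seen by Nanopore in 112 of 180 cells with an Illumina UMI for Gad1, in 209 of 387 for Gad2 and in 132 of 178 for Slc32a1.

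The summed libraries, with Nanopore again as isoform-assigned UMIs, were compared by edgeR's quasi-likelihood test. Of 9855 genes 4976 differed between the platforms (50.5%), and 2990 were lower by Nanopore (30.3%). Gad2 was among the latter at -0.93 on the log2 scale (SE 0.14, adjusted p = 0.0037), with -1.17 in the 190-cell and -0.74 in the 951-cell aliquot alone. A change in this direction was common among the genes tested. Gad1 differed by 0.05 (SE 0.23, adjusted p = 0.88). Slc32a1 differed by 0.36 (SE 0.16, adjusted p = 0.12), and with the aliquot number as a block by 0.33 (adjusted p = 0.035).

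Recovery was set beside the length of the transcript for the 5545 genes that had at least 200 Illumina UMIs and a known length, which were 94.6% of the 5862 genes with that count. The median was 72.4 Nanopore per 100 Illumina UMIs for leading isoforms of up to 1000 bases and 76.1 from there to 2000 bases, and it fell in each longer bin. It was 62.5 Nanopore per 100 Illumina UMIs for leading isoforms of more than 2000 and up to 3000 bases, the bin of Slc32a1. It was 46.6 from there to 4000 bases, the bin of Gad1, and 25.4 for more than 5000 and up to 6000 bases, the bin of Gad2, with quartiles of 10.7 and 49.9. Over both aliquots each of the 3 genes lay above the median of its bin and within its quartiles, while Gad2 in the 190-cell aliquot, at 22.8, lay below the median. The genes are not independent replicates, and no test was made of this relation.

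**Figure D4:**
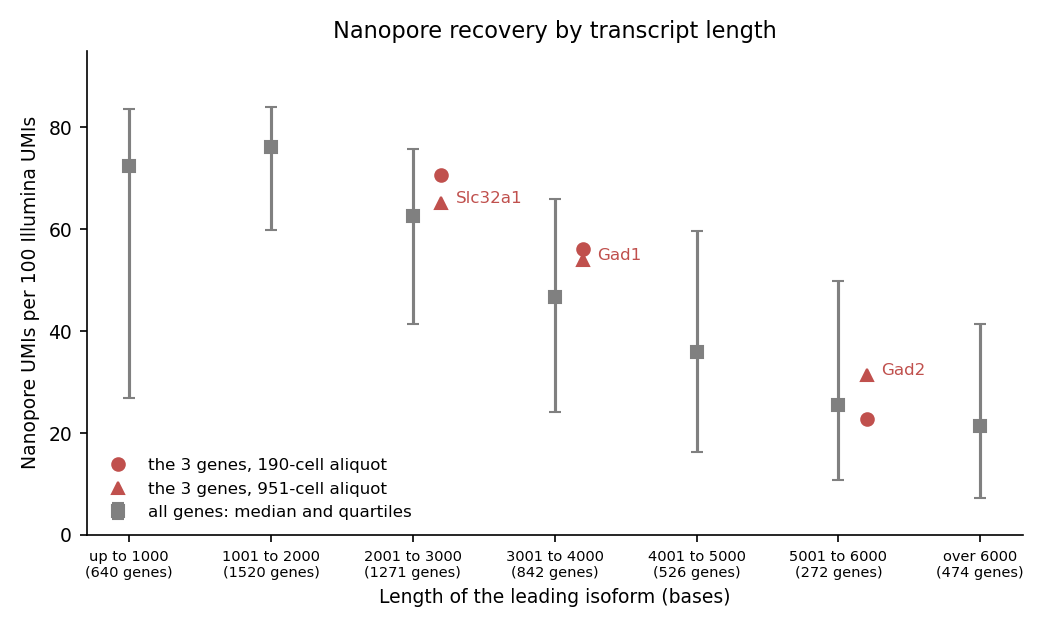
Isoform-assigned Nanopore UMIs per 100 Illumina UMIs by length of the leading isoform in bases. Grey squares and bars are the median and quartiles of all genes in each bin, and red circles and triangles are the 3 genes in the 190-cell and the 951-cell aliquot. In both aliquots recovery was highest for Slc32a1 and lowest for Gad2, the gene with the longest transcript.

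The unequal recovery changed the proportion of the decarboxylases. By Nanopore Gad1 made up 37.0% of the summed Gad1 and Gad2 UMIs in the mature and 28.3% in the immature GABAergic-like class, above the 22.6% and 19.2% of the Illumina UMIs. The aliquots gave 54.5% and 33.6% in the mature and 32.0% and 27.5% in the immature class, where the first value rested on 12 Gad1 and 10 Gad2 UMIs. Gad2 led Gad1 on both platforms in all of these libraries except that one. By Nanopore the mature class held 89 Slc32a1 and 85 Gad2 UMIs, so Gad2 did not lead there. In CPM of Nanopore UMIs, Gad2 stood at 359 and 290 in the immature and at 192 and 216 in the mature GABAergic-like class, Gad1 at 169 and 110 and at 230 and 109, and Slc32a1 at 148 and 90.1 and at 211 and 224.

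The Nanopore reads separated the isoforms. Of the 141 Gad1 UMIs assigned to an isoform, 113 were Gad1-201 (80.1%, 72.6% to 86.4%), 26 were Gad1-203 (18.4%, 12.4% to 25.8%) and 2 were Gad1-206 (1.42%), a transcript without an annotated reading frame. All 327 Gad2 UMIs were Gad2-201 and all 167 Slc32a1 UMIs were Slc32a1-201. The other annotated isoforms, 5 of Gad1 and 1 of Gad2, had no UMI. The shares count assigned molecules and are no measure of protein, and they depend on recovery by length, since Gad1-203 has 1197 bases and Gad1-201 has 3355.

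Gad1-203 made up 2 of 32 Gad1 UMIs in the 190-cell aliquot (6.25%, 0.766% to 20.8%) and 24 of 109 in the 951-cell aliquot (22.0%, 14.6% to 31.0%), so the intervals overlapped while the shares were unlike. By class it was 17 of 72 UMIs in immature GABAergic-like cells (23.6%, 14.4% to 35.1%), with 2 of 16 and 15 of 56 in the aliquots. It was 7 of 50 in mature GABAergic-like cells (14.0%, 5.82% to 26.7%), with 0 of 12 and 7 of 38. The intervals of the classes overlapped. It was 2 of 14 in cycling radial glia-like cells and was not seen among the 5 Gad1 UMIs of the radial glia-like and glutamatergic-like classes. The 26 UMIs lay in 26 cells, of which 8 also had Gad1-201, while 85 cells had Gad1-201 alone. Only 23 cells had 2 or more assigned Gad1 UMIs, so whether single cells favour an isoform could not be read at this depth.

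A test of isoform usage between mature and immature GABAergic-like cells (edgeR's diffSpliceDGE) could be made on 642 genes with enough UMIs, of which 6 passed, and none of the 3 genes was among the 642. Gad2 and Slc32a1 had 1 detected isoform each and so have no usage to test. Without the filter on low counts Gad1 could be tested among 7691 genes, and edgeR gave it an adjusted p of 1. In that run no gene passed, and 111 had an unadjusted p under 0.05.

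**Figure D5:**
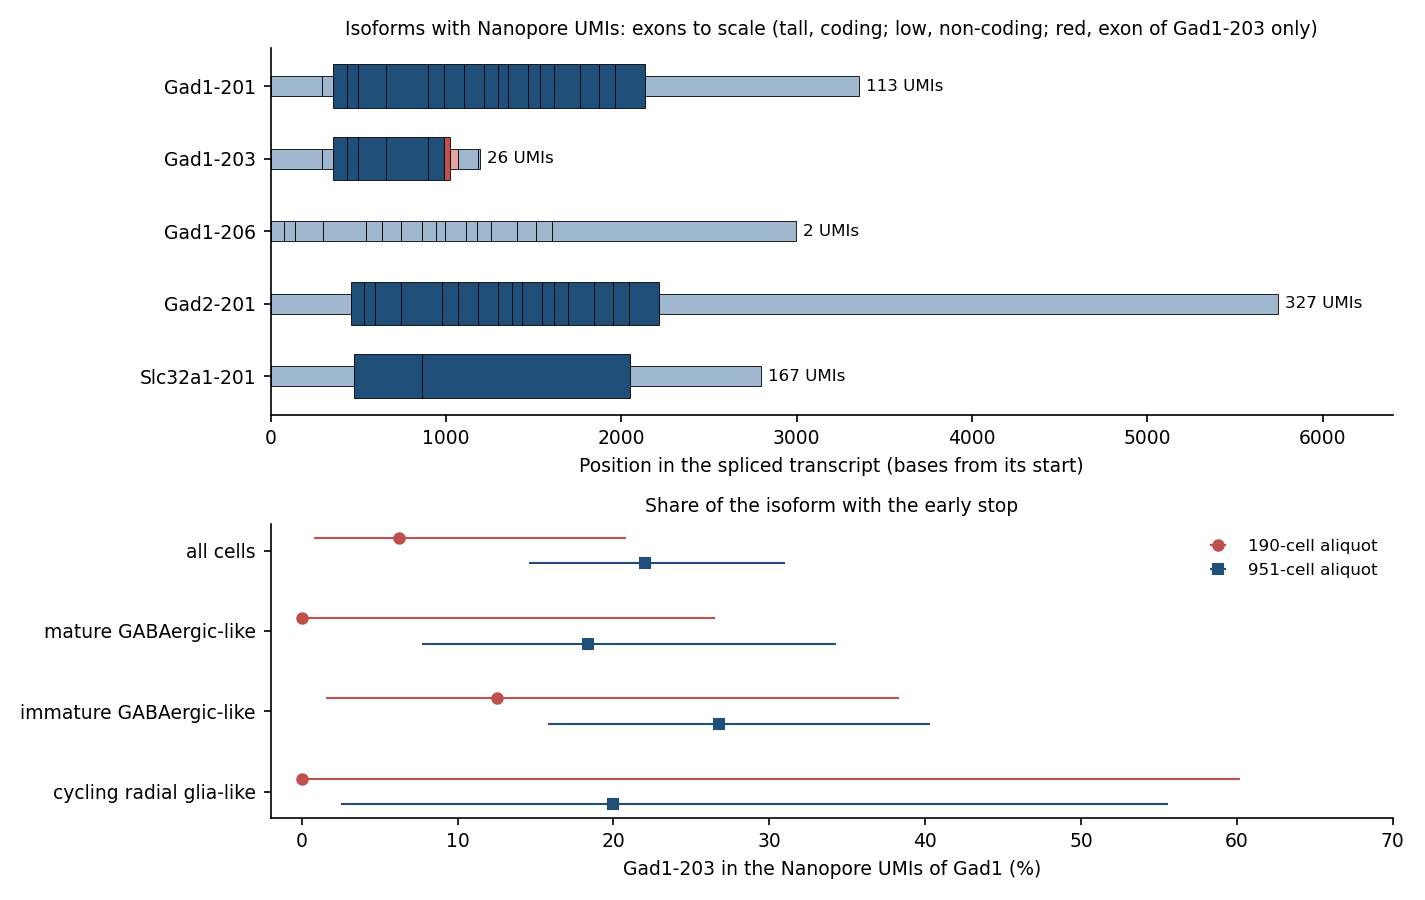
The isoforms with Nanopore UMIs, with exons to scale in bases along the spliced transcript (tall boxes coding, low boxes not coding, red for the exon of Gad1-203 only), and below them the share of Gad1-203 in the Gad1 UMIs (percent) per class and aliquot with 95% exact binomial intervals. Gad1-203 has 1197 bases against 3355 of Gad1-201 and made up 6.25% of the Gad1 UMIs in the 190-cell and 22.0% in the 951-cell aliquot.

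The genes with the pattern most like each of the 3 were found by Pearson's r of log2(CPM + 10) over the 16 sums of 8 classes and 2 aliquots, among 5861 genes with at least 200 Illumina UMIs. These points share libraries, so the values are a description. For Gad1 the closest was Slc32a1 (r = 0.976), followed by Dlx5 (0.966), Sp9 (0.959), Nrxn3 (0.941) and Gad2 (0.937). For Gad2 they were Nrxn3 (0.970), Dlx5 (0.950), Sp9 (0.940), Gad1 (0.937) and Dlx1 (0.930). For Slc32a1 they were Gad1 (0.976), Dlx5 (0.941), Sp9 (0.931), Nrxn3 (0.919) and Gad2 (0.919). Dlx5, Dlx1 and Sp9 encode transcription factors of GABAergic precursors and were among the markers that named the classes, and Nrxn3 encodes a presynaptic adhesion protein.

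The other genes around GABA were taken as lists of 54 genes, of which 30 could be tested between classes. In the mature classes 12 were higher and 2 lower in GABAergic-like than in glutamatergic-like cells, with a median log2 difference of 0.25 (-0.07 over all genes tested), where 9.09% of all genes tested passed. In the immature classes 10 were higher and 3 lower, with a median of 0.53 (-0.01 over all), where 5.04% passed. Between mature and immature GABAergic-like cells 1 was higher and 1 lower, where 2.54% passed. Outside the transcription factors the lists are small, and 1 or 2 genes past the threshold in a list are not read as a result about that list.

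Most of the higher genes were the transcription factors that set GABAergic fate. In the mature classes 9 of 9 tested were higher, with a median of 5.78 on the log2 scale, among them Sp9 at 6.30 (SE 0.67, adjusted p = 5.6e-05) and Dlx5 at 6.29 (SE 0.43, adjusted p = 3.1e-15). In the immature classes 7 of 9 were higher, with a median of 5.26. Dlx1, Dlx2, Dlx5, Sp9 and Lhx6 also served as class markers, so their counts are no separate evidence. Lhx6, a factor of interneurons of the medial ganglionic eminence, was the 1 gene of the list that differed between the GABAergic-like classes, at 156 and 68.1 CPM in the mature and 0 and 7.06 CPM in the immature class (log2 difference 3.99, SE 0.84, adjusted p = 0.0026).

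The breakdown of GABA was represented by 1 gene that could be tested between classes. Abat, the GABA transaminase that breaks GABA down, was higher in GABAergic-like than in glutamatergic-like cells. The difference was 3.31 (adjusted p = 0.014) in the mature and 3.76 (adjusted p = 0.0012) in the immature classes. It stood at 20.7 and 13.3 against 0 and 1.48 CPM in the mature classes. In the immature classes it stood at 29.2 and 35.3 against 6.37 and 1.31 CPM. Intermediate progenitor-like cells had 14.2 and 19.1 CPM, near the level of the mature GABAergic-like class.

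Among the other vesicular transporters, Slc17a6, which loads glutamate, was not found in immature GABAergic-like cells and stood at 41.4 and 36.8 CPM in immature glutamatergic-like cells (adjusted p = 2.2e-06). In the mature classes it stood at 0 and 1.66 against 9.22 and 11.5 CPM (adjusted p = 0.052). Slc18a2, which loads monoamines, stood at 23.4 and 35.3 CPM in immature GABAergic-like cells and at 0 in mature GABAergic-like (adjusted p = 0.01) and immature glutamatergic-like cells (adjusted p = 0.00024). For Slc17a6 in the mature GABAergic-like class only the 190-cell aliquot had no UMI. The other differences were against libraries with no UMI, and no fold is given for any of them.

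In the supply of glutamate and glutamine, from which GABA is made, 1 of 8 tested genes was higher and 1 lower in the mature classes. Glul, glutamine synthetase, was higher in mature GABAergic-like cells by 1.15 (adjusted p = 0.013). Slc1a3, a glutamate transporter of radial glia, differed by -3.58 (adjusted p = 3.7e-08) in the mature and by -2.51 (adjusted p = 8.6e-06) in the immature GABAergic-like classes. Slc1a3 was at 533 and 647 CPM in radial glia-like cells, but it was among the markers that named that class.

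On the receiving side, 5 of 13 GABA-A receptor subunits could be tested, and 1 of them differed. Gabra2, the alpha 2 subunit, stood at 41.5 and 49.8 CPM in mature GABAergic-like and 147 and 169 CPM in mature glutamatergic-like cells, a log2 difference of -1.86 (adjusted p = 0.026). In the immature classes the difference was -3.37 (adjusted p = 0.002). Gphn and Nlgn2, of the inhibitory postsynaptic scaffold, passed in none of the 3 class comparisons. The 1 GABA-B receptor subunit that could be tested did not pass either. The chloride cotransporters and the enzymes that supply pyridoxal phosphate, the cofactor of the decarboxylases, were too low to test between classes.

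Between the platforms 39 of the 54 genes could be tested, of which 13 were lower and 1 higher by Nanopore. Of all genes tested 30.3% were lower, so the count of 13 in 39 is near the background. Of all 9855 genes tested 1986 were higher, a larger share than the 1 in 39 of the lists, and this gap was not tested. The median log2 difference was -0.41 for the lists and -0.04 over all genes tested. The scaffold genes Nlgn2 (-3.89, adjusted p = 0.0013) and Gphn (-1.40, adjusted p = 0.004) were lower. Lhx6 was lower, at -4.12 (adjusted p = 0.0046). Glul was the 1 gene that was higher, by 0.54 (adjusted p = 0.015).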

How the data were processed

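The deposited Illumina values were raw UMI counts per gene and cell, which the authors made with Cell Ranger v2.0 on mm10. The deposited Nanopore values were UMI counts per isoform, which the authors made with minimap2 and their Sicelore tools against Gencode vM18, requiring the exon structure of an annotated isoform. The 2 libraries of each platform were grouped by platform and cell number per the labels. Nanopore isoforms were summed per gene, and 12561 genes were named in both tables. Median depth was 8048.5 and 7551 Illumina and 4394 and 4487 Nanopore UMIs per cell (190-cell and 951-cell aliquot), which limits precision for genes with 1 or 2 UMIs per cell.

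Cells were clustered with Seurat 5.3.0 (2000 variable genes, 11 dimensions, resolution 0.8) without Gad1, Gad2 and Slc32a1, which were also left out of the naming, and classes were named from marker lists. Doublets were called with Scrublet in scanpy 1.11.5 (1 and 3 cells) and kept, since leaving them out was an alternative. Class sums with at least 5 cells per aliquot, so not Cajal-Retzius-like cells, were tested with edgeR 4.0.16 (quasi-likelihood, TMM, low counts filtered, Benjamini-Hochberg). For the platforms the same aliquot number means the same cells, and deviations from the group means correlated at 0.597. For the classes it means different cells of the same aliquot, and the deviations correlated at 0.142 to 0.341. Fits with the aliquot as a block are therefore given where they change a call. In simulated data, 42% of genes changed 2-fold and 87% of those changed 4-fold were recovered for the platforms. These shares were 16% and 69% for the mature and 18% and 71% for the immature transmitter classes. Unchanged genes that were called numbered 25, 7 and 11 in the same order, beside 200 changed genes in each simulation. The simulated aliquots were drawn independently, so they lacked the correlations above. Alternatives were DESeq2 1.42.0, no filter on low counts, Nanopore counts, other clustering resolutions, the 3 genes kept for clustering, doublets left out, thinning to 2000 UMIs and each aliquot left out. Intervals are Clopper-Pearson or exact Poisson at 95%.

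Named genes were the 3 genes, their isoforms with a UMI, listed pathway genes past the threshold (at most 3 per list and comparison, with Slc17a6 always) and the 5 genes of most similar pattern. The genes and lists were chosen with earlier results of these data known. Some genes of the lists are counted in the lists but their own results are not reported here. Transcript structure and sequence came from Gencode vM21 on GRCm38 and promoter windows from RefSeq (GRCm38.p6), and all 3 genes matched. A protein table and a genome sequence were not used here.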

Additional observations from a re-analysis of the deposited data

Results flagged for a closer look

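The 20 barcodes with fewer than 1400 Illumina genes entered no class and no main comparison. Only an alternative with all barcodes took them in, for the platform difference and the isoform shares. They held Gad2 in 4 cells with 10 UMIs among 195785, that is 51.1 CPM. Gad1 had 3 UMIs in 1 of these cells and Slc32a1 3 UMIs in 2. The Gad2 value was picked out as a signal in data outside the main comparisons. It lay above the level in mature glutamatergic-like cells but below the 109 CPM of Gad2 over all kept cells. The class of the left-out cells was not determined.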

How the results depend on the processing

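Of 120 values of the 3 genes' differences under the alternatives, 110 were counted as unchanged. A value with a test was counted so if it kept its direction and its side of the threshold, whatever its size. A value without a test was counted so if it lay within the SE of the main value. All 66 values between GABAergic-like and glutamatergic-like classes were above 0 (4.22 to 9.37), and the 54 of them that had a test passed it. The highest, of Slc32a1 by Nanopore counts, set 89 UMIs against 0 and is no measured fold. The difference of Gad1 between mature and immature GABAergic-like cells reversed to 0.40 at resolution 1.2, and the cause was not tested. With the replicate block (same aliquot number) Slc32a1 passed between the platforms (0.33) and between the GABAergic-like classes (0.81), no other call of the 3 genes changed, and the numbers of genes past the threshold were 495 (mature against immature GABAergic-like), 1288 and 816 (mature and immature transmitter classes) and 11 (isoform usage). DESeq2 gave 3043 genes for the platforms, 79 for mature against immature GABAergic-like and 283 and 175 for the mature and immature transmitter classes. Nanopore counts gave 282 for the immature transmitter classes, with fewer genes tested. Isoform usage gave 0 genes without the filter on low counts, where 7691 were tested and 111 had an unadjusted p under 0.05, and 3 at resolution 1.2.

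The shares of cells depend on depth. By Nanopore they were 29.3% and 32.2% for Gad1 (mature, immature GABAergic-like), 44.3% and 59.3% for Gad2 and 28.2% for Slc32a1 in the immature class. Thinned to 2000 UMIs they were 25.0% and 20.9%, 53.6% and 58.2%, and 28.6% and 16.4%. Leaving out each aliquot in turn gave 43.9% to 58.8% and 43.2% to 58.1% for Gad1 and 82.9% to 94.1% for Gad2 in the mature class, 77.1% to 90.6% for Gad1-201 and 6.25% to 22.0% for Gad1-203. The Gad1 part of both decarboxylases by Nanopore was 37.0% and 28.3%. With 1 aliquot left out no spread remains between samples, so member differences are values without a test and counts of genes could not be fitted. Leaving out the 24 cells with shared barcodes, an alternative chosen after seeing the data, changed no call of the 3 genes. Of the low levels, those resting on 1 or 2 UMIs carry no order.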
